A study of Mus musculus with 6 samples.

Results

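The genes described here serve amino acid uptake, serine and folate metabolism and the transcription factor ATF4. They number 36 and were matched by symbol among the 21278 gene symbols of the deposited table, by a rule that names them and sets no threshold on a measured value. All 36 had a row, 2 of them (Gpt2 and Slc6a9) under a symbol that carries a database note. Of these, 28 reached 1 FPKM in at least 3 of the 6 libraries and were tested among 10651 genes. FPKM is a read number scaled to transcript length and library size, so it gives a share of the RNA pool.

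The libraries came from wild-type C57/BL6 mouse CD4 T cells under neutral (Th0) culture. In the 3 Blimp-1 libraries the cells carried the MigR1 retrovirus with Blimp-1 cDNA, and in the 3 empty vector libraries they carried MigR1 alone. In both groups sorted naive cells were activated for 36 h on plates coated with anti-CD3 and anti-CD28 (10 ug/ml) while antibodies blocked IFN-gamma and IL-4, then transduced, cultured for 2 days and sorted for the GFP of the vector. The growth label gives 3 days of activation. The vector's own promoter drives Blimp-1 in this model, so its level is not that of the endogenous gene. The labels speak of independent biological replicates and do not say what a replicate number marks.

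Activated T cells import neutral amino acids through the Slc7a5 and Slc3a2 pair and through Slc1a5, and they make serine and folate-bound carbon units for nucleotides as they grow. ATF4, whose translation rises when amino acids run short and the translation factor eIF2 is phosphorylated, binds C/EBP-ATF response elements and raises many of these transporters and enzymes. Blimp-1, encoded by Prdm1, is a transcriptional repressor that limits the expansion of lymphocytes. The comparison asks whether its forced expression changed the level of these genes.

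The table's labels were checked first. Prdm1 was at 9.91, 12.8 and 9.45 FPKM in Blimp-1 replicates 1, 2 and 3, against 0.996, 2.03 and 1.38 FPKM in empty vector replicates 1, 2 and 3, which the table does not split into viral and endogenous transcripts (log2 fold change 2.26, limma adjusted p = 0.0551 without and 0.00512 with the replicate number as a block). Estimated depth was 33700000 to 46300000 reads in the Blimp-1 libraries and 17200000 to 38500000 reads in the empty vector libraries. The 10 T cell markers, Cd4 among them, summed to 2536 to 2891 FPKM with Blimp-1 and 2625 to 3056 FPKM with the empty vector. Of 10 B cell and plasma cell markers 8 stayed below 1 FPKM in all libraries. The others were Cd79b, at 1.04 to 3.57 FPKM, and Cd79a, at 0.243 to 1.54 FPKM. Of the 2 CD8 T cell markers, Cd8a was at 0.100 to 0.169 FPKM and Cd8b1 at 7.01 to 10.9 FPKM. Empty vector replicate 3 stood apart, at 33.3 on a first principal component that held 52.3% of the variance, against -22.6 to 12.3 for the other 5 libraries. That library also had the lowest sum of the NK cell markers, 3.68 FPKM against 14.1 to 36.0 FPKM elsewhere. Most of this sum was 1 gene, Klrd1, at 3.16 FPKM there and 12.7 to 30.4 FPKM elsewhere. Klrk1, the other tested NK cell marker, was also lowest there, at 0.158 FPKM against 0.903 to 4.87 FPKM elsewhere. Tyrobp was at 0 FPKM there and in Blimp-1 replicate 1, and at 0.386 FPKM or less elsewhere. Ncr1 was at 0 FPKM in all libraries. Fcer1g, at 0.355 FPKM in empty vector replicate 3 against 0.0529 to 0.360 FPKM elsewhere, was not lowest in that library.

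RefSeq promoter windows of build GRCm38.p6, from 250 bases before to 50 after the start site, were at hand for 30 of the 36 members. The windows, used for sequence alone since the submitters' processing notes name build mm9, were searched on both strands for TGATGNAA, the core of the C/EBP-ATF response element, with N any base. It was present in 7 of the 30 members (23.3%), against 4.51% of all 27025 genes with a window. The members were listed in part as ATF4 targets, so this share could be high from the choice of genes alone. It is given as description. The 7 stretches are printed 5′ to 3′ along the gene, because the values of these genes are followed through the results, with the match in capitals (TTNCATCA where it lies on the other strand).
Asns (chr6:7693195-7693262, minus strand): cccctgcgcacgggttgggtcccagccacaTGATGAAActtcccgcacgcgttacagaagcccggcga
Slc7a11 (chr3:50443623-50443709, minus strand): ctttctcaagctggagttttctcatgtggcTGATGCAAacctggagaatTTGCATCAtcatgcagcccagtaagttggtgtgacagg
Chac1 (chr2:119351019-119351086, plus strand): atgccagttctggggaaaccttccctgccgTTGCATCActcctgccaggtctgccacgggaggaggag
Trib3 (chr2:152344011-152344076, minus strand): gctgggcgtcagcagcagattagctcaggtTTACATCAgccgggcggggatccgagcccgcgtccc
Got1 (chr19:43524670-43524737, minus strand): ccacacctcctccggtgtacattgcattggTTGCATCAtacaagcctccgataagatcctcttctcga
Slc1a4 (chr11:20332680-20332747, minus strand): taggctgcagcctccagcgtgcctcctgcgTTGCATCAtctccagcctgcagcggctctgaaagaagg
Pycr1 (chr11:120643814-120643881, minus strand): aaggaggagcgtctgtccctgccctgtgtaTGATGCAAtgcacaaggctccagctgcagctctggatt
The 2 matches of Slc7a11 start 66 and 47 bases before the start site on opposite strands, and that of Asns starts 23 bases before it. The match of Trib3 starts at base 15 of the transcript. By comparison the E-box CACGTG was in 2 members, Aldh18a1 and Slc43a1 (6.67%, against 8.09% of all genes), and GTGAAAG, the core of Blimp-1 sites, in 2, Shmt2 and Slc6a9 (6.67%, against 4.89%). No motif contains another. A match is a string of letters and does not show that a factor binds.

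No member was called as different between the vectors. With limma on log2(FPKM + 1) and p-values adjusted over all 10651 genes at a threshold of 0.05, 0 of the 28 tested members were higher and 0 were lower, where 0% of all genes were called. None of the 28 had an unadjusted limma p below 0.05, against 1.15% of all genes. With the replicate number as a block limma again called 0 members as higher and 0 as lower, against 0.00939% of all genes each way (0.0188% in all). There 3 members (10.7%) had an unadjusted p below 0.05, Trib3, Slc7a11 and Slc38a1, against 20.5% of all genes. The median log2 fold change was -0.09 over the 28 members and -0.01 over all genes, and single members ranged from -0.45 for Trib3 to 0.25 for Slc38a1. For 25 of the 28 members the 95% interval without the block lay within 1 either way on the log2(FPKM + 1) scale, and with the block for all 28. On that scale a doubling comes out as less than 1, the more so for genes of low FPKM.

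The 3 replicate pairs did not behave alike. In pair 1, 16 members were higher and 12 lower in the Blimp-1 library, with a median log2 difference of 0.03, against 5463 higher and 5188 lower and a median of 0.0059 over all genes. Pair 2 had 21 higher and 7 lower, with a median of 0.08, against 5341 higher and 5310 lower and a median of 0.00060 over all genes. Pair 3 had 4 higher and 24 lower, with a median of -0.24, against 5190 higher and 5459 lower and a median of -0.01 over all genes. Each pair compares 1 library per vector.

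**Figure D1:**
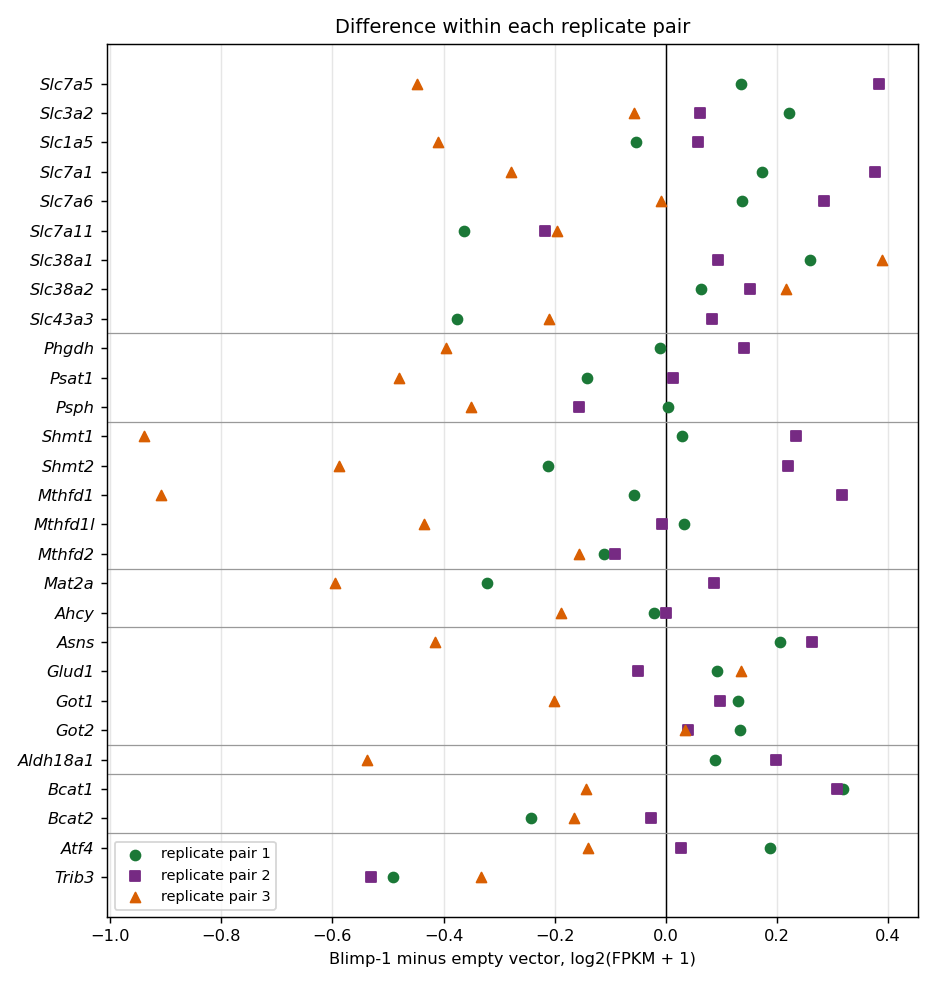
Difference of log2(FPKM + 1), Blimp-1 minus empty vector, on the horizontal axis for each of the 28 tested members, with 1 marker per replicate pair and lines between the roles. The markers of pair 3 lie left of 0 for 24 of 28 members, and those of Trib3 lie left of 0 in all 3 pairs.

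Empty vector replicate 3 was the library in which most members were high. Of the 28 members, 18 had their highest value of the 6 libraries there (64.3%), against 29.2% of all genes. All 3 serine synthesis genes, all 5 tested folate enzymes and both tested methionine cycle genes were among them. Against the other empty vector libraries, its members were higher by a median of 0.47 on the log2 scale, and 20 of 28 lay above both (71.4%, against 37.9% of all genes). Blimp-1 replicate 3 lay above both other Blimp-1 libraries for 13 of 28 members (46.4%, against 30.6% of all genes), with a median difference of 0.10. At the low end, empty vector replicate 2 held the lowest value of 11 members (39.3%, against 14.7% of all genes). Without empty vector replicate 3 the median member log2 fold change was 0.11, with 21 members higher and 7 lower. Leaving out both replicate 3 libraries from the blocked fit gave a median of 0.08, with 19 higher and 9 lower. Empty vector replicate 1 held the highest value of 0 of the 28 members, against 5.77% of all genes. Estimated depth was 17200000 reads in empty vector replicate 3 and 18100000 reads in empty vector replicate 1. The part of the depth or of the low NK marker sum in the values of empty vector replicate 3 was not tested. In such bulk samples fewer cells of a type and less RNA per cell cannot be told apart.

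**Figure D2:**
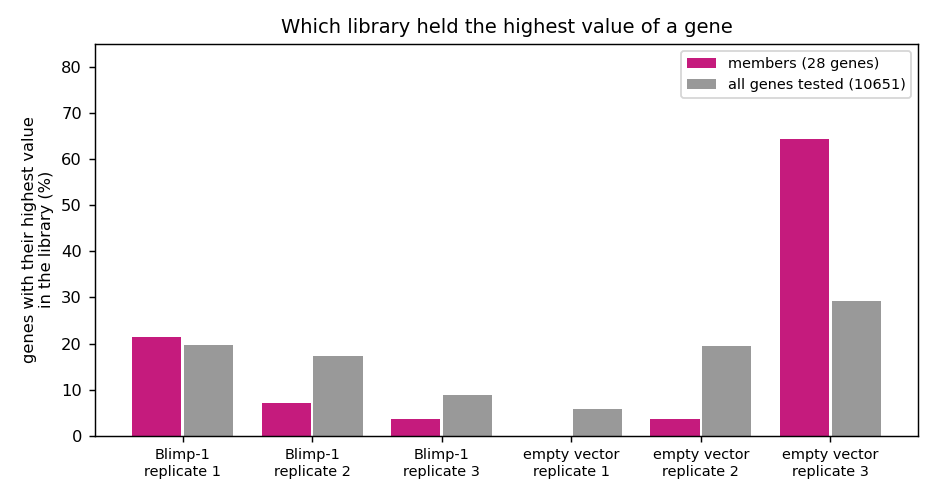
Share of genes (%) whose highest value lay in each library, for the 28 tested members and for all 10651 genes tested. Empty vector replicate 3 held the highest value of 64.3% of the members and 29.2% of all genes.

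**Figure D3:**
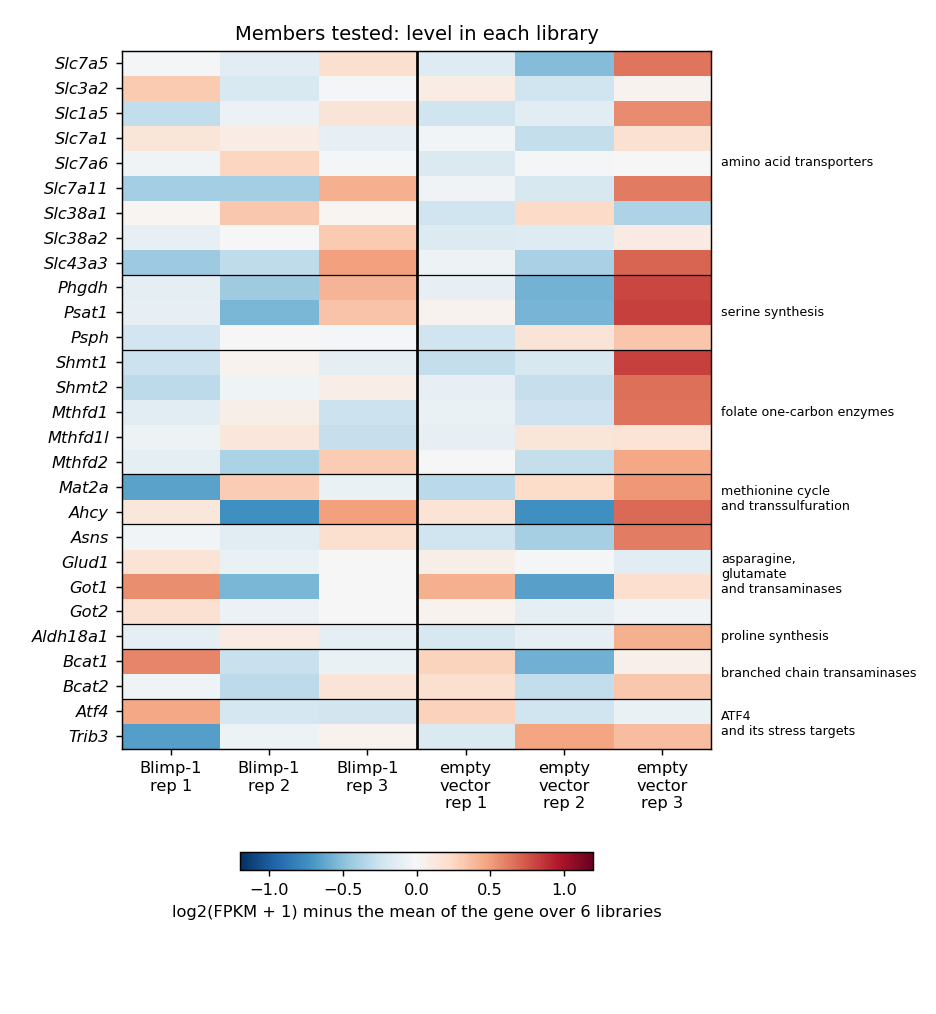
Level of each tested member in each library as log2(FPKM + 1) minus the gene's mean over 6 libraries, red above and blue below that mean, grouped by role. The serine, folate and methionine genes are red in empty vector replicate 3, where 10 of the 10 tested members of these roles were highest.

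Among the transporters, the neutral amino acid exchanger genes Slc1a5, Slc7a5 and Slc3a2 followed the replicate more than the vector. Slc1a5 and Slc3a2 were abundant and Slc7a5 was less so. Slc1a5, a carrier of glutamine and other neutral amino acids, was the most abundant transporter, at 45.7, 53.5 and 62.8 FPKM in the Blimp-1 libraries, against 47.5, 51.3 and 83.7 FPKM in the empty vector libraries (log2 fold change -0.14, SE 0.23, limma adjusted p = 0.998). The groups overlapped, and the single high value was empty vector replicate 3. Slc7a5, the light chain of the large neutral amino acid exchanger, was at 7.29, 6.68 and 8.61 FPKM with Blimp-1, against 6.55, 4.89 and 12.1 FPKM with the empty vector. It was higher with Blimp-1 in pairs 1 and 2, by 0.13 and 0.38 on the log2 scale, and lower in pair 3, by a difference of -0.45. Slc3a2, its heavy chain, was at 33.6, 23.7 and 26.6 FPKM with Blimp-1, against 28.7, 22.6 and 27.7 FPKM with the empty vector. Replicate 2 was lowest in both groups. The fold changes of Slc7a5 and Slc3a2 were 0.02 (95% interval -0.64 to 0.69) and 0.08 (-0.32 to 0.47) on the log2 scale.

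The sodium-coupled carriers of small neutral amino acids, Slc38a1 and Slc38a2, were the only tested members among the transporters that were higher with Blimp-1 in 3 of 3 pairs. Slc38a1 was at 22.0, 27.3 and 21.9 FPKM with Blimp-1, against 18.2, 25.5 and 16.5 FPKM with the empty vector. Its averages were 23.7 ± 3.08 and 20.1 ± 4.78 FPKM (SD, n = 3 each), a log2 fold change of 0.25 that did not pass (limma adjusted p = 0.998 without the block and 0.19 with it). Each of its 3 listed transcripts was higher with Blimp-1 in each pair. Slc38a2, also an ATF4 target, was at 38.6, 41.3 and 51.8 FPKM with Blimp-1, against 36.9, 37.0 and 44.5 FPKM with the empty vector (log2 fold change 0.14, blocked adjusted p = 0.287). In this gene both replicate 3 libraries were the highest of their group.

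Slc7a11, the cystine carrier that feeds glutathione synthesis, was the only tested member among the transporters that was lower with Blimp-1 in 3 of 3 pairs. It was at 2.42, 2.41 and 5.09 FPKM with Blimp-1, against 3.40, 2.97 and 5.98 FPKM with the empty vector, so both replicate 3 libraries were high and the groups overlapped. The log2 fold change was -0.26, with an adjusted p of 0.998 in limma without the block and 0.175 with it. Slc7a1 and Slc7a6, which carry arginine, averaged 4.49 ± 0.466 and 9.12 ± 1.2 FPKM with Blimp-1, against 4.19 ± 0.834 and 8.17 ± 0.574 FPKM with the empty vector (SD, n = 3 each). Slc43a3, a purine nucleobase carrier of the same family as the amino acid carrier Slc43a1, ranged from 5.99 to 12.3 FPKM with Blimp-1 and from 6.23 to 14.4 FPKM with the empty vector. Among the 12 transporter genes, 3 did not reach the filter. Slc1a4 stayed between 0.463 and 0.571 FPKM with Blimp-1 and between 0.271 and 0.678 FPKM with the empty vector. Slc43a1 ranged from 0.567 to 1.28 FPKM with Blimp-1 and from 0.354 to 1.51 FPKM with the empty vector. The glycine carrier gene Slc6a9 was at most 0.213 FPKM in any library, or an estimated 4.2 to 25.0 reads.

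In serine synthesis, Phgdh and Psat1, which catalyse the first steps, moved together across libraries. Phgdh was at 45.3, 36.2 and 65.5 FPKM with Blimp-1, against 45.6, 32.7 and 86.5 FPKM with the empty vector. Psat1 was at 23.8, 17.1 and 32.6 FPKM with Blimp-1, against 26.4, 17.0 and 45.8 FPKM with the empty vector. In both genes replicate 3 was highest and replicate 2 lowest in each group, so that the order of replicates was the same with and without Blimp-1. Their log2 fold changes were -0.09 (95% interval -0.94 to 0.76) and -0.20 (-1.06 to 0.65). Psph, the phosphatase of the last step, averaged 11.8 ± 1.11 FPKM with Blimp-1 and 13.6 ± 2.81 FPKM with the empty vector (SD, n = 3 each).

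Of the 5 tested folate enzyme genes, the mitochondrial Mthfd2, Mthfd1l and Shmt2 were more abundant than the cytosolic Mthfd1 and Shmt1. Mthfd2, a mitochondrial dehydrogenase induced by ATF4, was at 28.2, 23.1 and 37.9 FPKM with Blimp-1, against 30.5, 24.7 and 42.4 FPKM with the empty vector. It was lower with Blimp-1 in 3 of 3 pairs, by differences of -0.11, -0.09 and -0.16 on the log2 scale (log2 fold change -0.12, limma adjusted p = 0.998, or 0.326 with the block). Mthfd1l, which releases formate from mitochondria, was at 27.5, 31.7 and 23.6 FPKM with Blimp-1, against 26.9, 31.9 and 32.3 FPKM with the empty vector. Apart from replicate 3 the pairs were nearly equal. The cytosolic enzyme genes Mthfd1 and Shmt1 showed the widest gap of all members in pair 3, with log2 differences of -0.91 and -0.94. Mthfd1 ranged from 4.16 to 5.44 FPKM with Blimp-1 and had 4.81, 4.17 and 8.67 FPKM with the empty vector. Shmt1, which makes glycine from serine, ranged from 2.01 to 2.71 FPKM with Blimp-1 and had 1.95, 2.16 and 5.37 FPKM with the empty vector. In pairs 1 and 2 neither gene was lower with Blimp-1 by more than 0.06 on the log2 scale. Aldh1l2, a mitochondrial formyl-folate dehydrogenase, was at most 0.147 FPKM and was not tested.

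Shmt2, the mitochondrial enzyme that makes glycine and a carbon unit from serine, differed more in its transcripts than in its sum. The gene was at 15.3, 18.5 and 20.4 FPKM with Blimp-1, against 17.9, 15.8 and 31.1 FPKM with the empty vector (log2 fold change -0.19, limma adjusted p = 0.998). Its transcript NM_028230 was at 8.93, 10.1 and 10.7 FPKM with Blimp-1, against 16.3, 11.9 and 23.3 FPKM with the empty vector, with no overlap between the groups. The transcript NM_001252316 was at 6.40, 8.39 and 9.69 FPKM with Blimp-1, against 1.64, 3.90 and 7.82 FPKM with the empty vector, higher in each pair. NM_028230 thus made up 58.3%, 54.6% and 52.5% of the gene in the Blimp-1 libraries, against 90.8%, 75.3% and 74.9% in the empty vector libraries. The mean shares were 55.1 ± 2.92% and 80.3 ± 9.10% (SD, n = 3 each). This pattern was picked out after its values were seen. Of 1734 genes with 2 or more transcripts at a mean of 1 FPKM, 6.06% had a leading transcript share without overlap between the vectors. In 7 genes (0.404%), Shmt2 itself included, that share was lower with Blimp-1, without overlap, by at least as many points as in Shmt2. When each of 12999 transcripts was tested on its own, neither Shmt2 transcript passed, with limma log2 fold changes of -0.69 for NM_028230 and 0.90 for NM_001252316 (adjusted p = 0.292 each with the block). No transcript of any gene passed in either fit (0% of those tested). The other 6 members with 2 such transcripts had overlapping shares. In Aldh18a1 and Bcat2 the share of the leading transcript was 29.6% and 35.3% in empty vector replicate 3, against 55.0% to 77.8% in the other libraries of either gene, so estimates of this kind also vary within a vector.

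**Figure D4:**
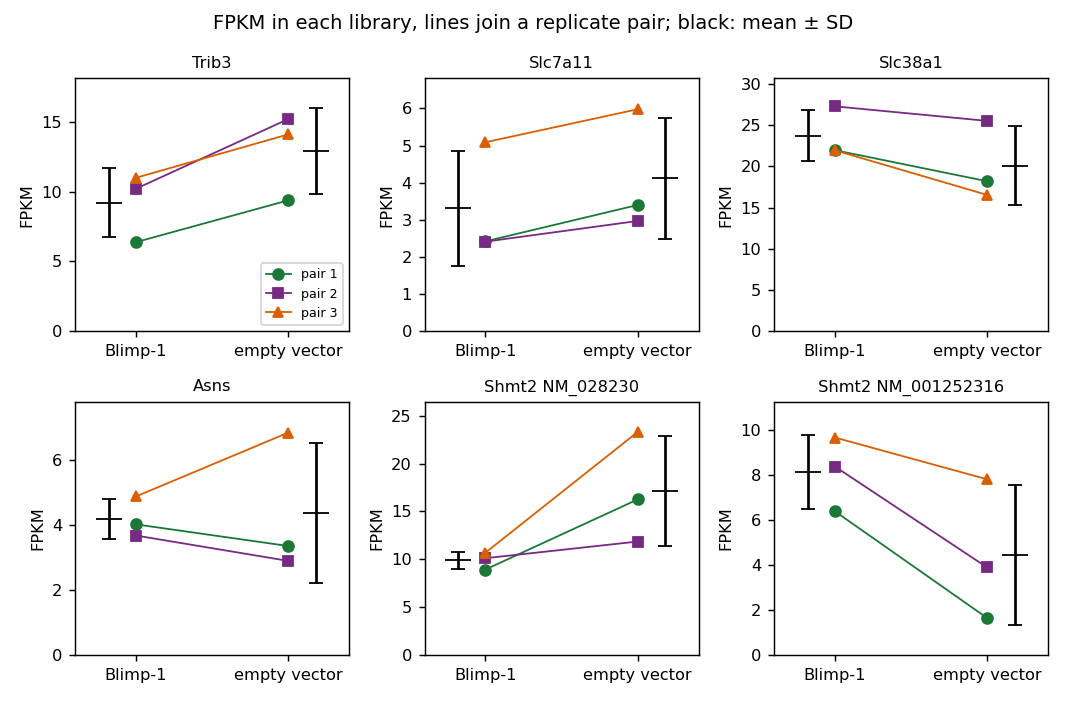
FPKM of 4 members and of both Shmt2 transcripts in each library, with lines that join the Blimp-1 and empty vector libraries of a replicate pair and black bars for mean ± SD (n = 3 each). Trib3, Slc7a11 and Shmt2 NM_028230 were lower and Slc38a1 and Shmt2 NM_001252316 higher with Blimp-1 in all pairs, and Asns differed in direction between pairs.

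The methionine cycle genes varied by replicate. Ahcy, which hydrolyses S-adenosylhomocysteine, was at 90.0, 48.4 and 115 FPKM with Blimp-1, against 91.3, 48.4 and 132 FPKM with the empty vector. The pairs were almost the same in replicates 1 and 2, while replicates differed by more than a doubling. Mat2a, which makes S-adenosylmethionine, was at 15.7, 31.1 and 23.7 FPKM with Blimp-1, against 19.8, 29.2 and 36.2 FPKM with the empty vector (log2 fold change -0.28, blocked limma adjusted p = 0.301). Cth, the last enzyme of cysteine synthesis from methionine, was at 1.62, 0.487 and 0.495 FPKM with Blimp-1, against 1.12, 0.211 and 0.269 FPKM with the empty vector. It was higher with Blimp-1 in each pair but passed 1 FPKM in only 1 library of each group and was not tested.

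Asns, the asparagine synthetase and a standard reporter of ATF4 activity, was at 4.03, 3.68 and 4.89 FPKM with Blimp-1, against 3.36, 2.90 and 6.86 FPKM with the empty vector. It was higher with Blimp-1 in pairs 1 and 2, by 0.21 and 0.26 on the log2 scale, and lower in pair 3, by a difference of -0.42 (log2 fold change 0.02, 95% interval -0.61 to 0.64). In the fit without the block, Glud1 and Got2 had the smallest standard errors of the tested members. Glud1, the mitochondrial glutamate dehydrogenase, was at 111, 93.7 and 98.9 FPKM with Blimp-1, against 104, 97.0 and 90.0 FPKM with the empty vector. Got2, the mitochondrial aspartate transaminase, was at 77.6, 65.2 and 68.0 FPKM with Blimp-1, against 70.7, 63.4 and 66.4 FPKM with the empty vector. It was the other tested member that was higher in 3 of 3 pairs (log2 fold change 0.07, 95% interval -0.22 to 0.36). Its cytosolic counterpart Got1 averaged 18.1 ± 7.23 FPKM with Blimp-1 and 18.0 ± 6.65 FPKM with the empty vector (SD, n = 3 each). Gpt2, the mitochondrial alanine transaminase, was at 0.597 to 0.691 FPKM with Blimp-1 and at 0.423 to 0.601 FPKM with the empty vector, below the filter.

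In proline synthesis, Aldh18a1 was at 11.0, 12.8 and 10.9 FPKM with Blimp-1, against 10.3, 11.0 and 16.3 FPKM with the empty vector, again with its peak in empty vector replicate 3. Pycr1, which closes the proline ring and holds a TGATGNAA match, was at 0.802, 0.482 and 0.824 FPKM with Blimp-1, against 0.874, 0.497 and 0.763 FPKM with the empty vector, and was not tested. Of the branched chain transaminases, the mitochondrial Bcat2 was at 42.8, 35.5 and 49.6 FPKM with Blimp-1, against 50.8, 36.1 and 55.7 FPKM with the empty vector, lower in 3 of 3 pairs (log2 fold change -0.14, blocked limma adjusted p = 0.308). The cytosolic Bcat1 was at 2.93, 1.17 and 1.47 FPKM with Blimp-1, against 2.15, 0.757 and 1.73 FPKM with the empty vector.

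Atf4 itself was the most abundant member, with a mean of 102 FPKM over the 6 libraries. It was at 138, 86.0 and 85.4 FPKM with Blimp-1, against 121, 84.4 and 94.1 FPKM with the empty vector. Replicate 1 was highest in both groups, and the log2 fold change was 0.03 (95% interval -0.51 to 0.56). ATF4 is controlled mainly at translation, which these data do not measure. Chac1, which degrades glutathione, was scarcely detected, at 0.126, 0.132 and 0.20 FPKM with Blimp-1, against 0.188, 0.088 and 0.236 FPKM with the empty vector, or an estimated 5.5 to 11.0 reads per library. A difference between the vectors was not detectable at this depth.

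Trib3, a pseudokinase that is induced by ATF4 and feeds back on it, had the largest difference of the tested members. It was at 6.38, 10.2 and 11.0 FPKM with Blimp-1, against 9.37, 15.2 and 14.1 FPKM with the empty vector. The value was lower with Blimp-1 in 3 of 3 pairs, by log2 differences of -0.49, -0.53 and -0.33, although the groups overlapped because replicate 1 was low in both. Averages were 9.19 ± 2.47 and 12.9 ± 3.09 FPKM (SD, n = 3 each), a log2 fold change of -0.45. It did not pass in limma without the block (SE 0.24, adjusted p = 0.998) or with it (SE 0.07, adjusted p = 0.146). When both replicate 3 libraries were left out of the blocked fit, Trib3 fell (log2 fold change -0.51, limma adjusted p = 0.000313) and was the only member called there, where 11.2% of all genes were called. In that fit 8 of the 28 members had an unadjusted p below 0.05 (28.6%), against 26% of all genes. Across the 19 alternatives Trib3 was lower each time, with log2 fold changes of -0.65 to -0.23 and adjusted p-values of 0.000313 to 0.9999.

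Counts of members that moved 1 way in every library or pair stayed near or below those of all genes. For 0 of 28 members the groups did not overlap, against 4.7% of all genes (2.33% higher and 2.38% lower). In 3 of 3 pairs 3 members were higher (Slc38a1, Slc38a2 and Got2) and 4 lower (Slc7a11, Mthfd2, Bcat2 and Trib3), where 23.1% of all genes were higher and 22.7% lower. The 4 tested members with a TGATGNAA match did not go 1 way, since Trib3 and Slc7a11 were lower in each pair and Asns and Got1 were higher in pairs 1 and 2 and lower in pair 3.

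The other genes of these pathways were taken from 6 lists of 100 genes, 83 of them tested. In limma 0 were called as higher and 0 as lower in either fit, and none had an unadjusted p below 0.05 without the block, while 11 had one with it (13.3%, against 20.5% of all genes). The median log2 fold change was -0.01. In 2 of the 83, Eif2ak4 among them, all Blimp-1 libraries lay above all empty vector libraries, against 2.33% of all genes, and in 0 below, against 2.38%. The 2 are thus about as many as among all genes. Eif2ak4, the kinase GCN2 that senses uncharged tRNA and raises ATF4 translation, was at 8.03, 7.11 and 7.40 FPKM with Blimp-1, against 6.53, 5.07 and 6.58 FPKM with the empty vector (log2 fold change 0.28, limma adjusted p = 0.998, or 0.172 with the block). It was higher in 3 of 3 pairs.

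Without both replicate 3 libraries the blocked limma fit called 6 of the 83 as higher and 1 as lower, against 5.14% and 6.08% of all genes. Among the 6 were Eif2ak4, Eif2ak3, Odc1, Sms and Hif1a, and the 1 was Tyms, all but Eif2ak4 named after their values were seen. Hif1a, a growth regulator of the glycolytic programme, was at 99.0, 80.9 and 56.4 FPKM with Blimp-1, against 73.8, 58.6 and 38.3 FPKM with the empty vector. Eif2ak3, the endoplasmic reticulum kinase PERK that also acts on eIF2, was at 20.5, 18.3 and 15.6 FPKM with Blimp-1, against 16.0, 15.2 and 11.6 FPKM with the empty vector. Both were higher in 3 of 3 pairs. Of the 4 tested genes on the list of Hif1a, 3 had a higher and 1, Myc, a lower log2 fold change with Blimp-1. Myc was at 27.2, 31.5 and 30.4 FPKM with Blimp-1, against 29.1, 26.3 and 60.2 FPKM with the empty vector (log2 fold change -0.27). Its log2 differences were -0.09, 0.25 and -0.96 in pairs 1, 2 and 3. Odc1, the ornithine decarboxylase of polyamine synthesis, behaved like many members, at 68.6, 42.1 and 40.9 FPKM with Blimp-1, against 44.4, 29.9 and 68.3 FPKM with the empty vector. It was higher with Blimp-1 in pairs 1 and 2 and lower in pair 3. Tyms, the thymidylate synthase that consumes a folate carbon unit, was at 10.0, 10.9 and 16.5 FPKM with Blimp-1, against 13.1, 14.2 and 20.4 FPKM with the empty vector, lower in each pair. With all 6 libraries none of these named genes passed (blocked limma adjusted p of 0.146 to 0.813).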

How the data were processed

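RNA from 6 samples was sequenced with TruSeq libraries as single reads of 50 cycles, per the labels. The authors deposited FPKM per RefSeq transcript, 29868 in all, with 1 column per library. The submitters' processing notes list build mm9, Partek 6.6, Cufflinks 2.2 and CASAVA 1.8.2 without their roles. The aligner, any filter and a strand setting were not given in the sources used here. Transcripts were summed per deposited symbol, case ignored and "includes EG" notes removed. The 1138 transcripts with no symbol (1.34% to 1.75% of summed FPKM per library) stayed out.

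Genes at 1 FPKM or more in 3 of 6 libraries were tested, two-sided, on log2(FPKM + 1) by limma 3.58.1 (R 4.3.3) with a variance trend and no term but the vector. Adjustment was by Benjamini-Hochberg over all genes, with a threshold of 0.05. Fold changes on this scale understate those of low genes, and near-identical gene copies can share reads. Without the block a p-value sets a difference against the spread between the libraries of a vector. With the block it sets the difference against the spread left after the replicate term. The method was tested on simulated data. Those data had a replicate effect built in and no outlying library, so the test does not bear on the pairing seen here. Depth, which the table does not give, was estimated from the value of 1 read in low genes with 1 transcript, times transcript length from GENCODE M21. Estimated read numbers use the same lengths.

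Same-numbered libraries deviated together from the means of their vectors, with correlations of 0.76, 0.80 and 0.67. This was read as pairing, which thus comes from the data, and a fit with the replicate number as a block was run as well. All members are named. Of the other pathway genes that the naming rule takes, 1 is not reported here. Values per library are given for calls, for groups without overlap, for the 2 most abundant members of a role and for a set of key genes. Other members and pathway genes given per library, and the Shmt2 transcripts, were added after their values were seen. The members and lists were chosen with earlier results of these data known. Alternatives were pseudocounts of 0.1 and 0.01, other filters, scalings, names and transcript choices, left-out libraries and, chosen after seeing the data, tests of single transcripts.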

Additional observations from a re-analysis of the deposited data

How the results depend on the processing

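No gene was called over all 6 libraries without the replicate block. Higher and lower genes numbered 1 each with the block, and the fit without empty vector replicate 2 called 1 as higher. Over the settings that left out a library or a pair the counts ran from 0 to 547 higher and from 0 to 648 lower, the most by far in the blocked fit without replicate 3. For the members they ran from 0 to 0 higher and from 0 to 1 lower, and for the other pathway genes from 0 to 6 higher and from 0 to 1 lower, all from that same fit. Its weight on the common variance trend, 19.2 prior degrees of freedom against 3.63 with all 3 pairs, was the largest of the blocked fits, and the fit rests on 4 libraries. The replicate block changed no call of a member. Members whose groups did not overlap numbered 0 to 3 in each direction when 1 library was left out, and 1, Shmt2, was lower when the highest transcript stood for the gene. With a library left out, groups separate more easily. The shares of all genes in these settings are not given here, so these counts are no result about the members. Members higher in 3 of 3 pairs were 6 of 36 with no filter, where Slc6a9, Cth and Gpt2 were added from below it. They were 5 of 28 with quantile normalization and 4 of 28 with upper quartile scaling, against 3 of 28 as reported. As reported, 23.1% of all genes were higher in 3 of 3 pairs, and the shares under the other settings are not given here. Of 659 log2 fold changes of 35 genes under 19 alternatives, 597 kept their sign and side of the threshold. Signs turned for Aldh18a1 (0.13) and Bcat2 (0.15) with the highest transcript. All other turns came from leaving libraries out. With 1 library left out, the log2 fold changes that turned in some setting ran over the following ranges: Ahcy -0.46 to 0.28, Aldh18a1 -0.20 to 0.11, Asns -0.18 to 0.33, Atf4 -0.20 to 0.17, Bcat1 -0.094 to 0.34, Glud1 -0.0089 to 0.11, Got1 -0.31 to 0.29, Got2 -0.0034 to 0.12, Mthfd1 -0.39 to 0.057, Mthfd2 -0.30 to 0.082, Odc1 -0.16 to 0.42, Phgdh -0.40 to 0.29, Psat1 -0.53 to 0.16, Shmt1 -0.43 to 0.13, Shmt2 -0.38 to 0.091, Slc1a5 -0.29 to 0.11, Slc3a2 -0.061 to 0.18, Slc43a3 -0.45 to 0.14, Slc7a1 -0.030 to 0.20, Slc7a5 -0.23 to 0.35. With the block, signs turned without pair 1 for Slc7a5 (-0.032), Asns (-0.076), Got1 (-0.052), Atf4 (-0.056), Odc1 (-0.12); without pair 2 for Slc7a5 (-0.16), Slc7a1 (-0.053), Asns (-0.11), Got1 (-0.035), Odc1 (-0.054); without pair 3 for Slc1a5 (0.0018), Phgdh (0.065), Shmt1 (0.13), Shmt2 (0.0042), Mthfd1 (0.13), Mthfd1l (0.012), Aldh18a1 (0.14). The cause was not tested. Trib3, Slc7a11, Slc38a1, Slc38a2, Slc7a6, Psph and Mat2a kept their sign in each setting run. With no filter all 36 members were tested and 0 were called. With 3 libraries per vector, a p that misses the threshold does not show that levels were equal.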
